A study of Mus musculus with 6 samples.

Results

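Activating transcription factor 4 (ATF4) and its amino acid response were followed through 36 genes in chondrocytes, the cells of cartilage, of A2ARKO and WT neonatal mice. The genes cover ATF4 with its partner and feedback factors, enzymes that make asparagine, serine, one-carbon units and proline, amino acid transporters, a pair of other ATF4 targets and 11 cytosolic tRNA synthetases. They were picked by gene symbol after the falls of Trib3, Atf5 and Aldh1l2 in this same comparison were known, so their values are given as a description and no p-value is attached to them. All 36 symbols were found among the 47480 rows of the deposited table. All 36 also had at least 1 FPKM (fragments scaled to gene length and library total) in each of the 6 libraries, so none was lost among the 11595 genes that passed the filter on low values. The genes lie on 16 chromosomes.

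A2ARKO mice lack the adenosine receptor encoded by Adora2a, a G protein-coupled receptor, on a C57BL/6 background. WT mice were C57BL/6 animals of the same facility. Each library held RNA of trypsinized primary chondrocytes pooled over a whole litter, with 3 litters of A2ARKO and 3 litters of WT mice, and the study asked what drives osteoarthritis. A replicate is a litter pool, so errors and p-values describe the spread between litters. Batches of culture or sequencing are not stated.

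ATF4 is the main effector of the integrated stress response. Shortage of amino acids, stress of the endoplasmic reticulum and other insults activate kinases that phosphorylate the initiation factor eIF2 on its alpha subunit, which slows general translation while the ATF4 message is translated more. ATF4 pairs with C/EBP and other leucine zipper proteins and binds composite elements near genes for amino acid synthesis, amino acid uptake and tRNA charging. Because ATF4 is set largely at translation, its mRNA level is not a reading of its protein, and no protein was measured. In the growth plate ATF4 is known to be needed for normal chondrocyte proliferation, and chondrocytes draw heavily on proline, serine and glycine for collagen.

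The promoters of the genes were read for the core of that composite element, TGATGNAA on either strand, from 250 bases before to 50 bases from the RefSeq start (GRCm38.p6, the assembly also called mm10). A promoter was in the table for 27 of the 36 genes, and 12 of these 27 (44.4%) held the letters. The same letters stood in 1219 of all 27025 genes with a promoter in the table (4.51%) and in 224 of 8734 tested genes (2.56%). The 12 genes held 14 matches, 10 before the start and 4 after it, and 10 of the 14 read TGATGCAA. Windows from 7 promoters are shown because they set genes whose groups did not overlap (Trib3, Chac1, Asns, Pycr1, Slc1a4 and Gars) beside Slc7a11, which holds a pair of matches and whose groups overlapped. The match was also held by Iars and Yars, whose groups did not overlap, and by Tars and Vldlr, whose groups overlapped. Their windows are not shown, so the choice of windows does not give the proportion of separate groups among genes with the match. Capitals mark the match, each sequence runs 5′ to 3′ on the strand of its gene, and the windows of Trib3, Chac1, Slc1a4 and Gars, and the second match of Slc7a11, hold it on the other strand.
Trib3, chr2:152344028-152344057, minus strand: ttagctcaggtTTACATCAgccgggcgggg
Chac1, chr2:119351038-119351067, plus strand: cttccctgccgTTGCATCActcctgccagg
Asns, chr6:7693214-7693243, minus strand: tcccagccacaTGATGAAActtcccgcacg
Pycr1, chr11:120643833-120643862, minus strand: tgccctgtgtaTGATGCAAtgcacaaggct
Slc1a4, chr11:20332699-20332728, minus strand: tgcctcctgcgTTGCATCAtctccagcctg
Gars, chr6:55037960-55037989, plus strand: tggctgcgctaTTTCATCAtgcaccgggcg
Slc7a11, chr3:50443614-50443713, minus strand: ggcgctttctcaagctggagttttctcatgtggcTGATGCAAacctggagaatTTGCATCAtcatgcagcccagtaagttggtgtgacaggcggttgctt

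Genes with and without the match had similar median differences. The 12 genes with it had a median log2 fold change (A2ARKO minus WT, of FPKM + 1) of -0.54, and the 15 genes with a promoter and no match had one of -0.56. Outside the 36 genes, 212 tested genes held the match, with a median of -0.02, and limma called 3.77% of them lower and 3.3% higher in A2ARKO, against 1.62% lower and 3.26% higher among 8495 tested genes without it. These are counts of letters in a window and say nothing about binding.

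Libraries of the same genotype differed from each other before any comparison was made. The summed FPKM of 13 cartilage markers was 2269, 4551 and 6392 in A2ARKO libraries 1, 2 and 3, against 25908, 1344 and 489 in WT libraries 1, 2 and 3, so the highest and the lowest were both WT. WT library 2 carried the most leukocyte RNA (13 markers, 53.5, 30.3 and 26.5 in A2ARKO libraries, against 184, 1931 and 134 in WT libraries) and skeletal muscle RNA (8 markers, 10.8 to 32.5 in A2ARKO libraries, against 8.01, 1276 and 21.3 in WT libraries). The sum of 10 fibroblast markers was 3464 to 5047 in A2ARKO and 7081 to 9436 in WT. By limma 1 of the 10, Dpt, was called lower in A2ARKO, against 1.77% of all tested genes. Most of that sum came from the collagens Col1a1, Col1a2 and Col3a1, none of them called, while Dcn had a log2 fold change of 1.15 with overlapping groups and Pdgfra and Thy1 had 0.02 and 0.03. Endothelial markers summed to at most 3.83 FPKM and erythroid markers to at most 0.14 FPKM in any library. In bulk RNA, fewer cells of a type and less RNA per cell cannot be told apart.

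Adora2a itself had 0.41, 0.54 and 0.66 FPKM in A2ARKO libraries, against 9.36, 7.31 and 3.46 FPKM in WT libraries. It was 12.5-fold lower in A2ARKO by the ratio of means (log2 fold change -2.245 ± 0.31 SE, limma adjusted p = 0.0203), and p was 0.1 by an exact two-sided permutation test, which cannot go lower with 3 libraries a group. The adjusted p was 0.0824, 0.0955 and 0.0864 without A2ARKO library 1, 2 or 3, and 0.0582 without WT library 2. Of the 36 genes, 3 share chromosome 10 with Adora2a, and Aldh1l2 is the nearest at 8.2 Mb. Within 10 Mb of Adora2a, 4 of 178 tested genes were called lower, Aldh1l2 among them, and 4 higher in A2ARKO. Over all tested genes, 1.77% were called lower and 3.31% higher.

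Most of the 36 genes were lower in A2ARKO chondrocytes. The log2 fold change was below 0 for 32 of them, with a median of -0.46 and a range of -1.97 to 0.18, against a median of 0.00 over all genes tested, of which 49.6% lay below 0. By limma's adjusted p below 0.05 over all genes, 6 were called lower (Trib3, Slc7a5, Aldh1l2, Atf5, Pycr1 and Eprs), 0 were called higher and 30 were not called. The same rule called 5.08% of all tested genes in either direction, 1.77% lower and 3.31% higher. At an unadjusted p below 0.05, which 24.7% of all tested genes passed in either direction, 23 were lower and 0 higher. For 23 genes every A2ARKO library lay below every WT library, which held for 14.9% of all tested genes, and for the other 13 the groups overlapped. Leaving aside Trib3, Atf5 and Aldh1l2, the remaining 33 had a median of -0.42, and 3 were called. Since the list was drawn up from this contrast, these shares describe it and are not read against the background.

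WT library 1, the library with the most cartilage marker RNA, stood highest. It held the highest WT value for 33 of the 36 genes, and for 13 of them it was at least 1.5 times as high as both other WT libraries. Relative to each gene's mean over the 6 libraries, the median of the 36 genes on the log2 scale was -0.15, -0.31 and -0.29 in A2ARKO libraries 1, 2 and 3, against 0.53, 0.21 and 0.10 in WT libraries 1, 2 and 3. Within A2ARKO, library 1 held the highest value for 27 genes, although it had the least cartilage marker RNA of the 3. The coefficient of variation of the genes had a median of 10.2% in A2ARKO and 17.2% in WT, and the standard deviation was larger in WT for 30 of 36. Over all tested genes the medians were 7.94% in A2ARKO and 15.9% in WT. Without WT library 1 the median log2 fold change was -0.38, 29 genes lay below 0 and 8 were called lower. The count called lower was 2, 1 and 1 without A2ARKO library 1, 2 or 3, and 3 without WT library 2. It was again 8 without WT library 3.

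**Figure D1:**
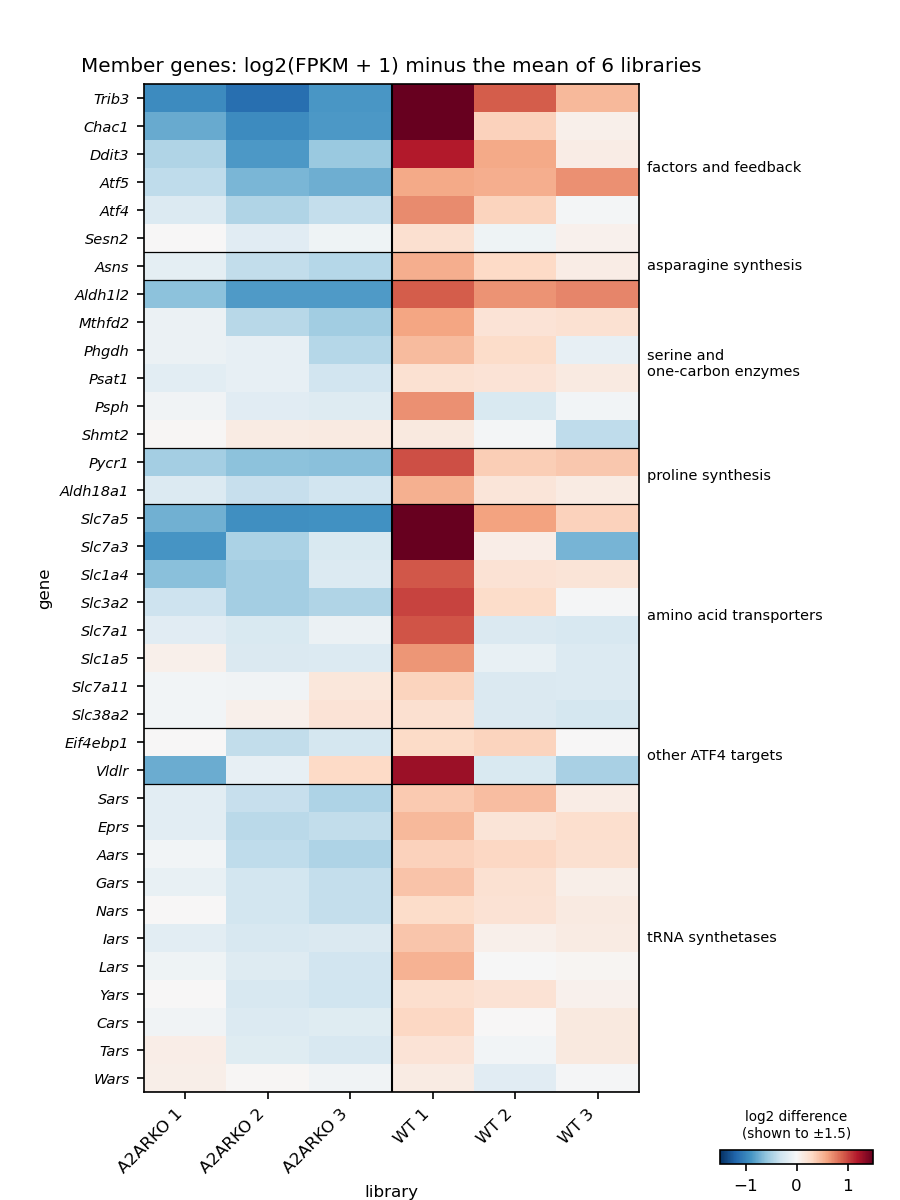
Color gives log2(FPKM + 1) minus the gene's mean over the 6 libraries, with 1 row per gene grouped by role and 1 column per library, A2ARKO left of WT, and the scale ends at ±1.5. The A2ARKO columns are mostly blue and the WT columns mostly red, WT library 1 is the darkest, and Shmt2, Slc38a2, Slc7a11 and Wars do not follow the pattern.

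**Figure D2:**
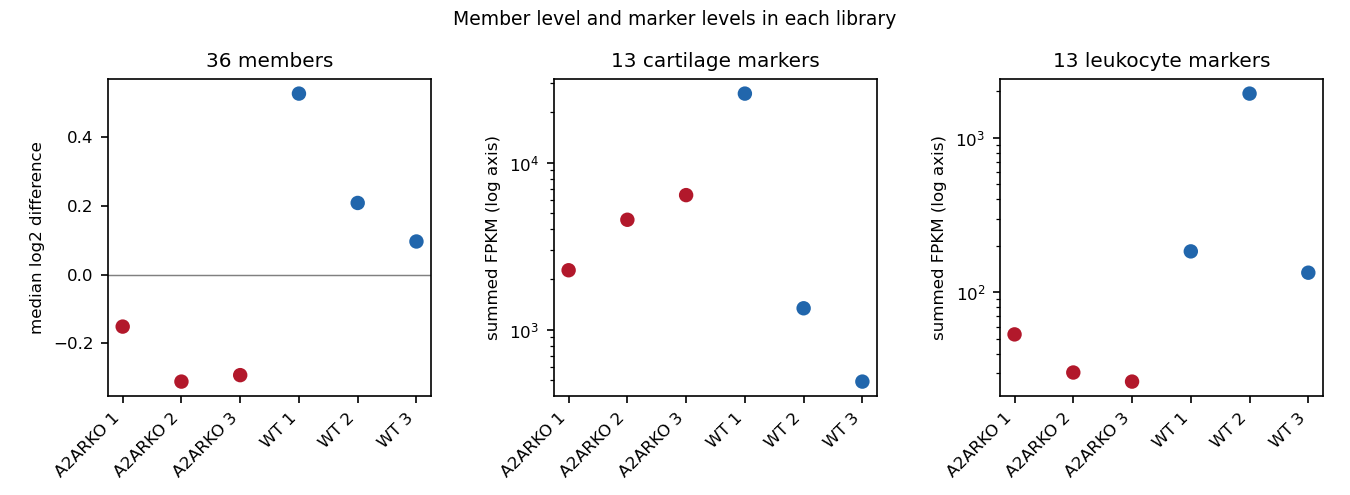
Each point is 1 library, A2ARKO left of WT. The panels give the median over the 36 genes of the log2 difference from the gene's mean, and the summed FPKM of cartilage and of leukocyte markers on log axes; WT library 1 is highest in the first 2 panels and WT library 2 in the third.

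Atf4, the factor itself, was the most abundant of the 36 messages per length. It had 162.5, 137.3 and 145.8 FPKM in A2ARKO libraries 1, 2 and 3, against 306.6, 237.2 and 183.5 FPKM in WT libraries 1, 2 and 3. The groups did not overlap, and the mean was 149 ± 12.8 in A2ARKO and 242 ± 61.7 in WT (SD, n = 3 each), a log2 fold change of -0.68 ± 0.21 (SE). It was not called, and the difference was -0.49 without WT library 1. Atf5 encodes a related leucine zipper factor that is itself induced by the response. Its values were 108.2, 87.8 and 84.7 FPKM in A2ARKO libraries, against 210.2, 206.5 and 228.5 FPKM in WT libraries. Here the 3 WT libraries lay close together, and the log2 fold change was -1.20 ± 0.14 with all libraries and -1.22 without WT library 1. The call on Atf5 was lost without A2ARKO library 2 or 3.

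Trib3 encodes a pseudokinase that ATF4 and CHOP induce and that restrains them in turn, and it had the largest fall of the 36 on the log2(FPKM + 1) scale. By the ratio of means Chac1 was lowest, 4.40-fold lower in A2ARKO against 4.33-fold for Trib3. Trib3 measured 12.9, 11.2 and 13.6 FPKM in A2ARKO libraries, against 77.8, 49.1 and 36.5 FPKM in WT libraries, a log2 fold change of -1.97 ± 0.27. The A2ARKO libraries were alike, and even the lowest WT library was well above them. The call was made in 2 of the 6 fits that each left out 1 library, those without WT library 1 (-1.68) and without WT library 3. Ddit3, which encodes the proapoptotic factor CHOP, read 22.7, 16.8 and 21.0 FPKM in A2ARKO libraries, against 72.7, 47.0 and 33.8 FPKM in WT libraries (-1.24 ± 0.28). Ddit3 was not called with all 6 libraries and was called without WT library 1 or 3.

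Chac1, a glutathione-degrading enzyme whose message is a sensitive marker of ATF4 activity, was at 9.07, 7.82 and 8.38 FPKM in A2ARKO libraries, against 73.7, 20.6 and 16.99 FPKM in WT libraries. The groups did not overlap, but WT library 1 stood far above the other WT libraries. The log2 fold change was -1.71 ± 0.53 with it and not called, and -1.07 ± 0.12 without it and called. Sesn2, a stress-induced inhibitor of mTORC1 that senses leucine, differed least of the factors, with 24.0 to 27.4 FPKM in A2ARKO and 25.8 to 32.1 FPKM in WT and overlapping groups (-0.16 ± 0.11). Values of Chac1 and Ddit3, and below of Slc3a2, Slc7a3 and Eprs, are given in full although they were chosen after their values were seen.

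**Figure D3:**
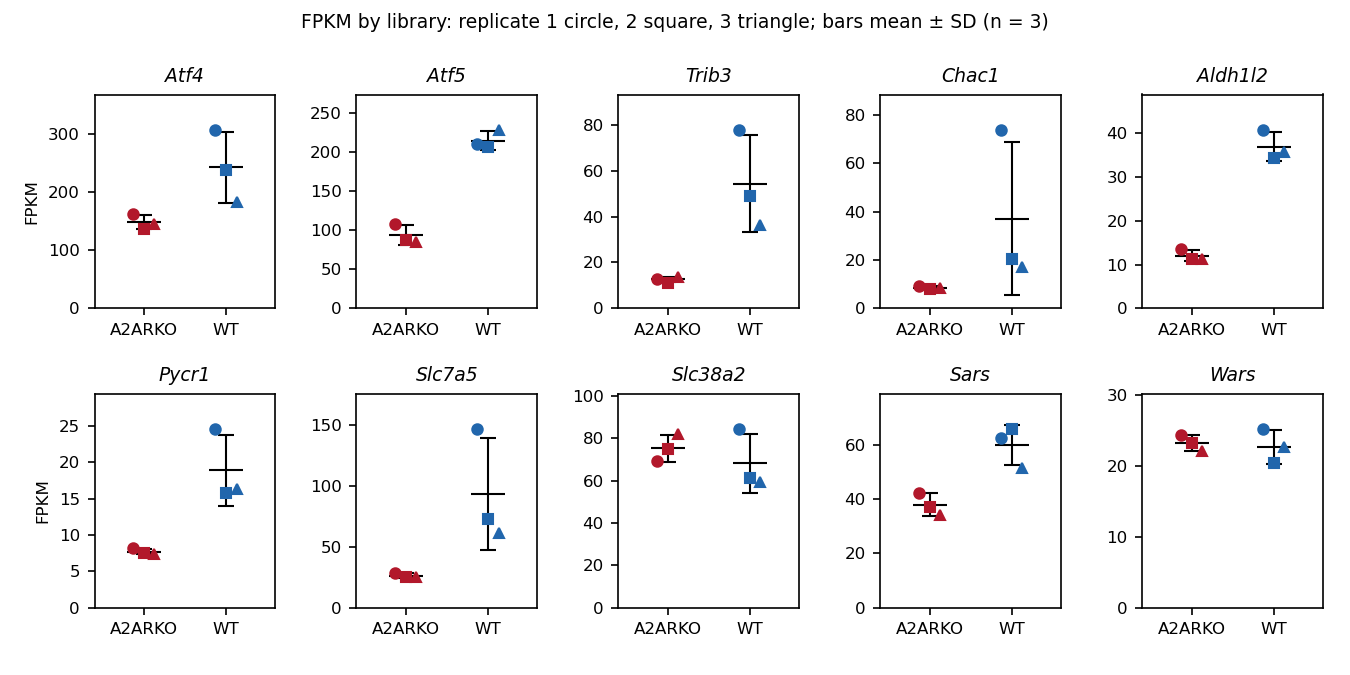
FPKM of 10 of the genes in each library (linear axes from 0; circle, square and triangle for replicates 1, 2 and 3), with the mean and SD of 3 libraries as black bars, A2ARKO left of WT. Atf5 and Aldh1l2 show tight, separate groups, Chac1 and Slc7a5 a spread set by WT library 1, and Slc38a2 and Wars groups that overlap.

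Asns, asparagine synthetase, is the classical amino acid response gene. It had 54.5, 46.7 and 44.7 FPKM in A2ARKO libraries, against 88.9, 74.6 and 65.3 FPKM in WT libraries. All A2ARKO libraries lay below all WT libraries (-0.63 ± 0.15), and it was not called. Its promoter window shown above has the form TGATGAAA, close before the start.

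Of 6 serine and one-carbon enzymes, 5 lay below 0, 3 had groups without overlap and 1 was called. Over all tested genes, 14.9% had groups without overlap and lower in A2ARKO, and 1.77% were called lower. Aldh1l2, the mitochondrial enzyme that oxidizes formyl-tetrahydrofolate, had 13.5, 11.3 and 11.3 FPKM in A2ARKO libraries, against 40.7, 34.4 and 35.8 FPKM in WT libraries. With a log2 fold change of -1.55 ± 0.11, its groups were far apart relative to their spread, and it was the gene among the 6 called that was also called in each of the 6 fits without 1 library. Aldh1l2 overlaps an opposite-strand gene over 14.1% of its exon bases, and whether the counting used strand is not stated. Mthfd2, its partner in the mitochondrial folate cycle, averaged 18.9 ± 3.20 FPKM in A2ARKO and 31.0 ± 4.94 FPKM in WT (SD, n = 3 each), without overlap and not called.

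The 3 steps from glycolysis to serine gave smaller differences. Psat1, the aminotransferase, averaged 42.4 ± 2.64 FPKM in A2ARKO and 55.4 ± 1.86 FPKM in WT without overlap (-0.38), while Phgdh, the first enzyme (-0.42), and Psph, the last (-0.28), overlapped. The Psph difference was -0.01 without WT library 1. Shmt2, which splits serine into glycine in mitochondria, had the largest positive difference of the 36. It read 74.5, 80.2 and 80.7 FPKM in A2ARKO libraries, against 81.6, 72.4 and 56.2 FPKM in WT libraries, with overlapping groups (0.18 ± 0.15).

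Both enzymes of proline synthesis from glutamate were lower in every A2ARKO library than in any WT library. Pycr1, the reductase of the final step, measured 8.13, 7.51 and 7.42 FPKM in A2ARKO libraries, against 24.5, 15.8 and 16.3 FPKM in WT libraries. Its log2 fold change was -1.17 ± 0.17, or -0.97 without WT library 1, and its call was lost without A2ARKO library 1, 2 or 3. Aldh18a1, which catalyses the first steps, averaged 41.3 ± 2.08 FPKM in A2ARKO and 61.8 ± 9.93 FPKM in WT (SD, n = 3 each; -0.56 ± 0.13) and was not called.

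Among 8 amino acid transporters, the heterodimer of Slc7a5 and Slc3a2, which exchanges glutamine for leucine and other large neutral amino acids, was lower in all A2ARKO libraries. Slc7a5, the light chain, had 28.7, 24.7 and 24.9 FPKM in A2ARKO libraries, against 146.0, 73.0 and 61.2 FPKM in WT libraries (-1.70 ± 0.32). Even the lowest WT library was above every A2ARKO library, and the log2 fold change was -1.33 without WT library 1. The Slc7a5 call was lost without A2ARKO library 1, 2 or 3 and without WT library 2. Slc3a2, the shared heavy chain, had 51.3, 44.4 and 46.03 FPKM in A2ARKO libraries, against 129.1, 77.3 and 62.6 FPKM in WT libraries (-0.85 ± 0.27), and was not called. Slc1a4, a carrier of alanine, serine and cysteine, also had groups without overlap, at 18.8 to 25.5 FPKM in A2ARKO and 33.9 to 57.0 FPKM in WT (-0.89).

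The other 5 transporters had overlapping groups. Without WT library 1 the median log2 fold change of the 8 transporters was -0.09, against -0.59 with all libraries. Slc7a3, a cationic amino acid carrier, was at 1.53, 2.36 and 2.96 FPKM in A2ARKO libraries, against 20.1, 3.98 and 1.88 FPKM in WT libraries, and its log2 fold change was -1.06 ± 0.71 with WT library 1 and -0.23 without it. Slc7a1, another cationic carrier, and Slc1a5, a glutamine carrier, gave -0.33 and -0.23 with all libraries and 0.07 and 0.04 without WT library 1. Slc7a11, the cystine importer with the pair of promoter matches, was the lowest of the 36, at 1.24 to 1.63 FPKM in A2ARKO and 1.01 to 1.94 FPKM in WT (0.05 ± 0.18), and its sign turned under both rescalings and without A2ARKO library 3 or WT library 2 or 3. Slc38a2, the glutamine and alanine carrier that amino acid shortage induces, had 69.2, 75.01 and 81.9 FPKM in A2ARKO libraries, against 84.3, 61.2 and 59.3 FPKM in WT libraries (0.16 ± 0.16). All A2ARKO libraries lay between WT library 1 and the other WT libraries.

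Of the pair of other targets, Eif4ebp1, the mTORC1 substrate that represses cap-dependent translation, had 80.4, 61.9 and 66.3 FPKM in A2ARKO libraries, against 98.2, 101.1 and 80.2 FPKM in WT libraries. The groups touched at A2ARKO library 1 and WT library 3 (-0.42 ± 0.15). Vldlr, a lipoprotein receptor, had 6.22, 10.1 and 13.8 FPKM in A2ARKO libraries, against 28.4, 9.28 and 7.58 FPKM in WT libraries, and its difference of -0.37 ± 0.51 became 0.17 without WT library 1.

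The 11 tRNA synthetases, which charge tRNAs with their amino acids, showed small differences of uneven size. Their log2 fold changes ran from -0.64 to 0.04 with a median of -0.41, and 10 lay below 0. For 9 the groups did not overlap and were lower in A2ARKO, which held for 14.9% of all tested genes. By limma 1 was called lower, against 1.77% of all tested genes. Eprs, the fused glutamyl-prolyl synthetase and the 1 of the 11 that was called, had 19.4, 16.1 and 16.5 FPKM in A2ARKO libraries, against 30.7, 24.9 and 26.0 FPKM in WT libraries (-0.62 ± 0.12). The groups were separate, and the call held in 1 of the 6 fits without 1 library, the fit without WT library 1. Sars, seryl-tRNA synthetase, had the largest difference, with 42.5, 37.3 and 34.1 FPKM in A2ARKO libraries, against 62.7, 65.9 and 51.6 FPKM in WT libraries (-0.64 ± 0.14). Aars, for alanine, averaged 34.5 ± 5.75 FPKM in A2ARKO and 52.1 ± 2.02 FPKM in WT (SD, n = 3 each; -0.59), although part of its exons overlap other genes. Gars, Nars, Iars, Lars, Yars and Cars, for glycine, asparagine, isoleucine, leucine, tyrosine and cysteine, lay between -0.49 and -0.30. Tars, for threonine, had overlapping groups (-0.21). Wars, for tryptophan, is known for its induction by interferon as well, and had 24.4, 23.3 and 22.1 FPKM in A2ARKO libraries, against 25.1, 20.4 and 22.6 FPKM in WT libraries (0.04 ± 0.10). Its sign turned when WT library 2 was left out, and also under both rescalings tried.

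**Figure D4:**
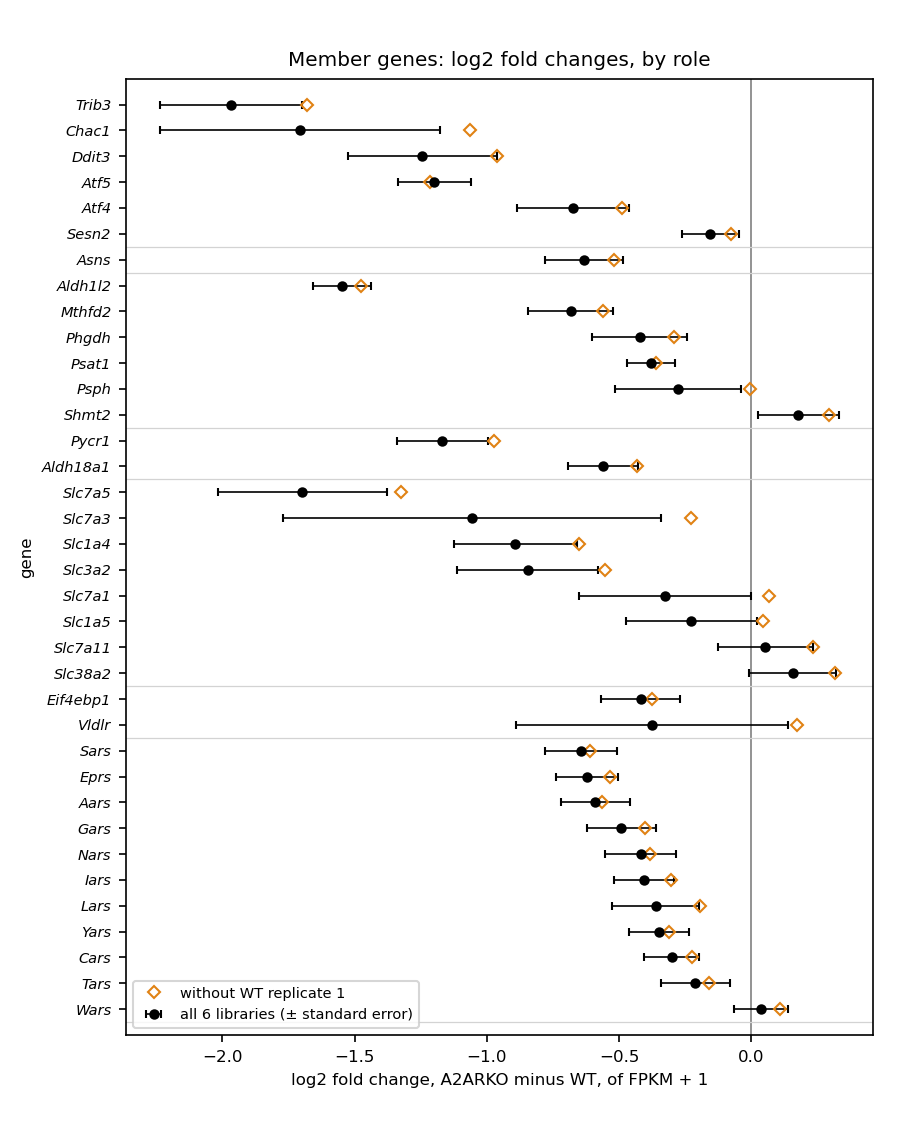
Log2 fold changes of the 36 genes (A2ARKO minus WT, of FPKM + 1), black with ± 1 standard error for all 6 libraries and open diamonds without WT library 1, sorted within roles that thin lines separate. Most diamonds lie nearer 0 than the black points, and Chac1, Slc7a3, Slc7a1 and Vldlr shift furthest.

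Genes of neighbouring pathways, listed from general knowledge with earlier results of these data known, were tested in the same fit. Of 176 such genes outside the 36, 157 passed the filter, 7 were called higher and 3 lower in A2ARKO, and the median was 0.04. Over all tested genes, 3.31% were called higher and 1.77% lower, so these counts are given as a description. Leaving out 1 library gave 0 to 15 called higher and 0 to 8 called lower, with the highest counts without WT library 1 and 0 in both directions without A2ARKO library 2 or 3. Without the filter on low values, Cebpd, Mthfd1 and Sesn1 kept their calls and the other 7 lost theirs.

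The cytosolic synthetases outside the 36 genes lay on the other side of 0. Of the 9 of them, 8 had a log2 fold change above 0 and 1 below, with a median of 0.21, and 7 had every A2ARKO library above every WT library, which held for 18% of all tested genes. The same 8 to 1 split was found in each alternative setting, with medians of 0.10 to 0.26. Hars, histidyl-tRNA synthetase, had 50.7, 49.8 and 47.8 FPKM in A2ARKO libraries, against 37.5, 38.4 and 36.6 FPKM in WT libraries (0.39 ± 0.08, limma adjusted p = 0.0491). It was the 1 called, against 3.31% of all tested genes called higher. The call was lost in all 6 fits without 1 library (adjusted p 0.0552 to 0.216), without the filter, under both rescalings and with a pseudocount of 0.1 (0.0503). The 11 synthetases among the 36 genes are thus not a sample of the whole family. Of 16 mitochondrial synthetases, 0 were called by limma (3 at an unadjusted p below 0.05, against 24.7% of all tested genes), with a median of -0.01, or -0.09 after rescaling to the same sum and -0.05 after quantile normalization. The smallest p values there belonged to Yars2 (0.26, adjusted p = 0.0961) and Sars2 (0.29, adjusted p = 0.185).

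The 15 genes listed for eIF2alpha kinases, phosphatase subunits and eIF2B, with Eif2s1, Gcn1l1 and Impact among them, had a median of 0.06. Limma called 0 of them (2 at an unadjusted p below 0.05, against 24.7% of all tested genes). That median was -0.05 after rescaling to the same sum and 0.03 after quantile normalization. Eif2ak2, the kinase activated by double-stranded RNA, had 22.4, 20.3 and 33.1 FPKM in A2ARKO libraries, against 9.63, 11.2 and 16.9 FPKM in WT libraries (0.96 ± 0.26, adjusted p = 0.0885), and Eif2b1, a subunit of the exchange factor, followed (0.23, adjusted p = 0.184). Phosphorylation was not measured.

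Of 13 tested genes listed as leucine zipper partners of ATF4, 3 were called higher, 1 was called lower and 9 were not called. Over all tested genes, 3.31% were called higher and 1.77% lower. The list counts Cebpz by its C/EBP name only (0.16, not called). Cebpd rose, with 141.4, 148.7 and 180.9 FPKM in A2ARKO libraries, against 31.4, 50.1 and 31.6 FPKM in WT libraries (2.06 ± 0.21, limma adjusted p = 0.0107). Cebpb, whose product dimerizes with ATF4 and CHOP, rose to 43.8 ± 2.29 FPKM in A2ARKO, against 16.2 ± 5.39 FPKM in WT (SD, n = 3 each; 1.43 ± 0.23, limma adjusted p = 0.0301). Nfe2l2, the antioxidant factor, also rose (0.52 ± 0.10, adjusted p = 0.0405), and Jdp2, a repressor that binds AP-1 sites, fell (-0.96 ± 0.18, adjusted p = 0.0429). The Cebpd call was lost without A2ARKO library 2 or 3 (adjusted p up to 0.0628) and the Cebpb call without A2ARKO library 1, 2 or 3 (up to 0.119). The Jdp2 call was lost without any 1 A2ARKO library or WT library 2 (up to 0.159), and the Nfe2l2 call held in 1 of the 6 such fits (up to 0.170) and was lost under both rescalings.

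Groups without overlap were lower in A2ARKO for 9 of 22 further ATF4 targets tested and higher for 4, against 14.9% and 18% of all tested genes. Of the 22, 18 lay below 0 with a median of -0.31, and 1 was called each way, against 1.77% of all tested genes called lower and 3.31% higher. Without WT library 1 that median was -0.10, with 12 below 0. Cyb5r1, a reductase, fell (-1.13 ± 0.22, limma adjusted p = 0.0457), and Tnfrsf10b, the death receptor that CHOP induces, rose (0.86 ± 0.16, limma adjusted p = 0.0451). Both calls were lost without any 1 A2ARKO library (adjusted p up to 0.178 and 0.181), that of Cyb5r1 also without WT library 2, and that of Tnfrsf10b also under both rescalings. The other serine, glycine and folate enzymes had a median of 0.18 over 14 genes, and Mthfd1, the cytosolic counterpart of Mthfd2, rose to 27.1 ± 0.74 FPKM in A2ARKO, against 16.997 ± 1.40 FPKM in WT (SD, n = 3 each; limma adjusted p = 0.0190). Among 13 other proline and glutamate enzymes, with a median of 0.10 (-0.02 after rescaling to the same sum), Glul, glutamine synthetase, rose (0.80 ± 0.14, adjusted p = 0.0370). The calls on Mthfd1 and Glul were lost without any 1 A2ARKO library and without WT library 2 (adjusted p up to 0.114 and 0.136), and after rescaling to the same sum (0.0674 and 0.0709).

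Outside these, 18 other amino acid transporters had 0 called by limma (5 at an unadjusted p below 0.05, against 24.7% of all tested genes) and a median of -0.09 (-0.18 after rescaling to the same sum, -0.15 after quantile normalization), led by Slc7a7 (-0.64, adjusted p = 0.0630) and Slc43a2 (0.79, adjusted p = 0.0945). Of 24 genes of mTORC1 and its amino acid sensors, 1 was called, against 5.08% of all tested genes called in either direction. It was Sesn1, a relative of Sesn2, which fell to 7.25 ± 0.21 FPKM in A2ARKO, against 12.3 ± 0.84 FPKM in WT (SD, n = 3 each). Its log2 fold change was -0.69 ± 0.08 (limma adjusted p = 0.0130), and the call was lost without any 1 A2ARKO library (adjusted p up to 0.0808). Targets of ATF6 and XBP1, the other branches of the unfolded protein response, had a median of 0.30 over 17 genes with 0 called by limma (5 at an unadjusted p below 0.05, against 24.7% of all tested genes). That median was 0.18 after rescaling to the same sum and 0.13 after quantile normalization, and 5 of the 17 were called higher without WT library 1. The smallest p values were those of Edem1 (-0.41, adjusted p = 0.0713) and Sdf2l1 (0.69, adjusted p = 0.0752).

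**Figure D5:**
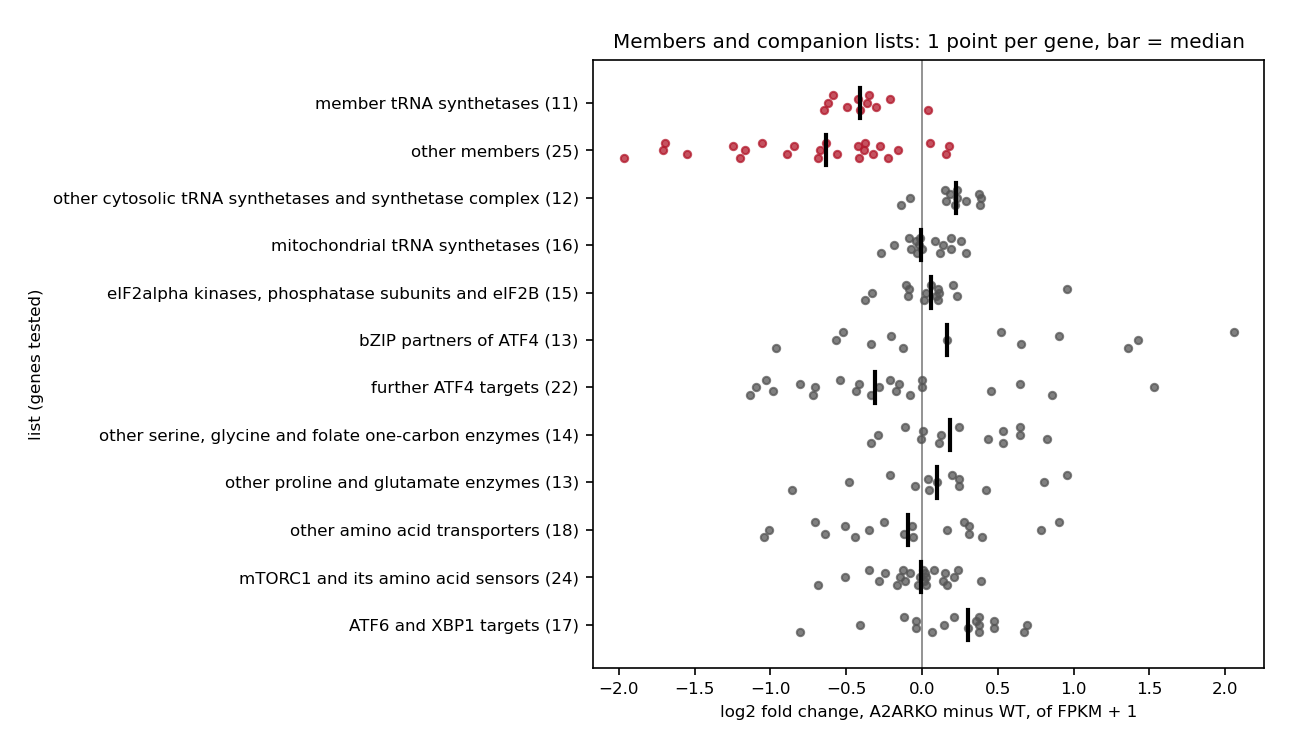
Each point is the log2 fold change (A2ARKO minus WT, of FPKM + 1) of 1 tested gene and each bar a list's median, with the 36 genes in red in the top 2 rows and the neighbouring lists in grey. The red points lie mostly left of 0, the other cytosolic synthetases mostly right of it, and the partners of ATF4 on both sides.

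The summed leukocyte markers, and the summed fibroblast markers with their 3 collagens, were lower in every A2ARKO library than in any WT library, as were 23 of the 36 genes. Dcn, Pdgfra and Thy1 among the fibroblast markers did not follow the sum. Most of the leukocyte sum in WT libraries 1, 2 and 3 came from Lyz2, at 127.7, 1433.6 and 103.9 FPKM. Of 11 leukocyte markers tested, 0 were called. Csf1r, Lyz2, Adgre1, Itgam, Tyrobp, Fcer1g, C1qa, C1qb and C1qc were lower in every A2ARKO library than in any WT library. Their log2 fold changes ran from -3.90 (C1qb) to -1.74 (Itgam). Groups without overlap and lower in A2ARKO were found for 14.9% of all tested genes. Cd68 (-1.81) and Cd14 (0.12) had overlapping groups. Cartilage marker RNA was highest in WT library 1, as were 33 of the 36. Their part in these differences was not tested.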

How the data were processed

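RNA of 6 litter pools was sequenced on an Illumina HiSeq, per the labels' protocols. The authors deposited 1 table of FPKM, made with HTSeq on mm10 per the submitters' processing notes; not given in the sources used here are the aligner, versions, annotation, gene lengths and strand setting. Genes with at least 1 FPKM in at least 3 of 6 libraries (11595) were fitted as log2(FPKM + 1) with limma 3.58.1 in R 4.3.3 (lmFit, eBayes with trend, two-sided, no block), with Benjamini-Hochberg adjustment over all of them and calls at an adjusted p below 0.05. The log2(FPKM + 1) scale understates changes of low genes. The fit was first run on simulated data with 1 common spread for all genes and both groups. The real spread was wider in WT, so that run does not test the fit under unequal spread. The members and lists were chosen with earlier results of these data known.

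Values per library are given for Atf4, Asns, Trib3, Atf5, Aldh1l2 and the largest rise and fall in each role, and other members by range and count. Of each neighbouring list, up to 4 called genes with the largest change are named or, where none was called, the 2 with the smallest p. Depth was estimated from the steps between low FPKM values of genes up to 150 nt long. It was 51.3, 58.3 and 52.5 M reads (M, mega) in A2ARKO libraries and 41.6, 50.0 and 52.6 M in WT libraries. This puts about 297 (Slc7a3) to 38676 (Slc38a2) reads behind a member's value in 1 library. Reads computed this way and summed over genes exceed the depth in every library (59.2 M in WT library 1), so these read numbers are rough and may be too high. Positions come from GENCODE M21 on GRCm38 and promoters from RefSeq on GRCm38.p6. Exons of 8 members overlap genes on the opposite strand, so their reads may be shared. No pair of libraries of 1 genotype agreed within sampling noise, so all 6 were counted. The promoter window of 1 member with a match is not reported here.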

Additional observations from a re-analysis of the deposited data

How the results depend on the processing

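The median log2 fold change of the 36 genes stayed between -0.61 and -0.38 in every setting tried, 29 to 34 of them lay below 0, and 0 were called higher in any. The counts of calls moved more. With all libraries, 589 genes were called (384 higher, 205 lower), 6 of the 36 were called lower, and 7 neighbouring genes were called higher and 3 lower. Without the filter these were 213 genes, 2 of the 36, and 2 higher and 1 lower. Rescaling the libraries to the same sum gave 348 genes (178 higher, 170 lower), 9 of the 36, and 2 higher and 5 lower. Quantile normalization gave 561 (302 higher, 259 lower), 11 of the 36, and 4 higher and 5 lower. Leaving out 1 library gave 50 to 900 genes, 1 to 8 of the 36, 0 to 15 higher and 0 to 8 lower. Adora2a had an adjusted p of 0.0533 without the filter at the same log2 fold change of -2.245, and -2.60 to -1.99 with 1 library left out. A pseudocount of 0.1 and a fit without trend left these counts within 1.5 times. The cause of these changes was not tested, except that no filter means 26442 genes to adjust over. Replicate numbers did not pair the libraries: same-numbered libraries had correlations of -0.52, -0.33 and -0.39 in their deviations from the group means. A replicate block left 2 genes called, 0 of the 36, 0 neighbouring genes higher and 0 lower, with Adora2a at -2.245 and an adjusted p of 0.121. FPKM hold no counts, and 3 libraries a group limit what can be called.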
